A study of Mus musculus with 9 samples.

Results

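The comparison described here sets differentiating against proliferating progenitors of the mouse cerebral cortex, gene by gene. Its members are 6 of the 9 sorted RNA-seq libraries of the series, 3 per group, chosen by the labels alone. Both groups came from the lateral cortex of C57BL/6 embryos at embryonic day 14.5, with the meninges and ganglionic eminences taken off before papain dissociation. All embryos carried a fluorescent reporter of Btg2 and one of Tubb3. Proliferating progenitors were the cells without red Btg2 fluorescence (RFP-), and differentiating progenitors were the red cells (RFP+). The other 3 libraries, green Tubb3-positive neurons, share the model's estimate of spread and are given as values beside some results. Both reporters are green in the genotype label, while the titles name red for the Btg2 gate, and the groups follow the titles and cell type labels. Each library is poly-A RNA from a pool of about 1000000 sorted cells of more than 3 embryos from different litters. P-values therefore measure the spread between pools. The sources used here do not say whether green cells were kept out of the RFP- gate.

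In the embryonic cortex, radial glia line the ventricle, are joined there by adherens junctions, and divide to renew themselves. Some of their daughters switch on the antiproliferative gene Btg2, lose contact with the ventricle and become intermediate progenitors. Those cells divide again in the subventricular zone and give rise to glutamatergic neurons. The comparison asks which transcripts separate the 2 kinds of progenitor.

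Values are normalised read counts per gene as the authors deposited them, called normalised reads here. Where 3 values are given for a group, they are those of libraries 1, 2 and 3. Log2 changes are differentiating minus proliferating ± SE on the log2(value + 1) scale, which understates the change of low genes. A gene rose or fell where limma, fitted over all tested genes, gave a Benjamini-Hochberg adjusted p under 0.05. Unequal numbers of cells of a type and unequal RNA per cell cannot be told apart in such pools.

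The 6 libraries summed to between 17531558 and 19077173 normalised reads, from between 12657784 and 23598463 reads as estimated from the spacing of the whole values, an estimate least certain for differentiating replicate 3. Replicate 1 stood apart in every group: processed pseudogenes took 2.24% and 2.08% of replicate 1 of proliferating and differentiating progenitors, against 0.514% to 0.614% of the other 4. The 2 progenitor groups were sorted on Btg2, so its difference is no finding. Btg2 was at 8952, 7032 and 9336 normalised reads in proliferating libraries and at 14022, 14635 and 19983 in differentiating ones. Tubb3, the reporter gene of the neuron gate, was at 2511, 1557 and 1158 against 10937, 13097 and 9711. In neurons it was at 50230, 48666 and 39932, and the part of neurons in its rise was not tested. Red blood cell markers differed most among the lists for other cell types: 19 genes summed to 106802 to 265615 normalised reads in proliferating libraries and to 1173 to 3314 in differentiating ones. Of 17 tested, 14 fell. The erythroid enzyme Alas2 was at 5246, 2931 and 3912 against 37, 10 and 12, and the globin Hbb-b1 at 129264, 53693 and 58676 against 965, 104 and 111. Proliferating replicate 1 held the most of both. The fall of Hbb-b1, -8.37 on the log2 scale, was -9.42 without differentiating replicate 1.

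Of 15828 genes tested, 2186 rose and 1758 fell, shares of 13.8% and 11.1% that stand as the background for every list below. With replicate number as a block, 3793 rose and 3489 fell (24.0% and 22.0%), and all 3944 genes called without the block were among them. In replicates 2 and 3 alone, 2946 rose and 2649 fell (18.6% and 16.7%). Changes of at least 2-fold were fewer, 1041 up (6.58%) and 740 down (4.68%). In 2985 genes (18.9%) all 3 differentiating libraries lay above all 3 proliferating ones, and in 2980 genes (18.8%) they lay below. Most list members given with values below were picked among called ones by smallest adjusted p in these data. Groups that do not overlap in them are therefore no result. Scaling each library to the same total turned the balance of calls, to 1885 higher and 2255 lower. Leaving out proliferating replicate 2, differentiating replicate 2 or differentiating replicate 3 brought the number that fell to 1114, 1076 and 1108.

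**Figure D1:**
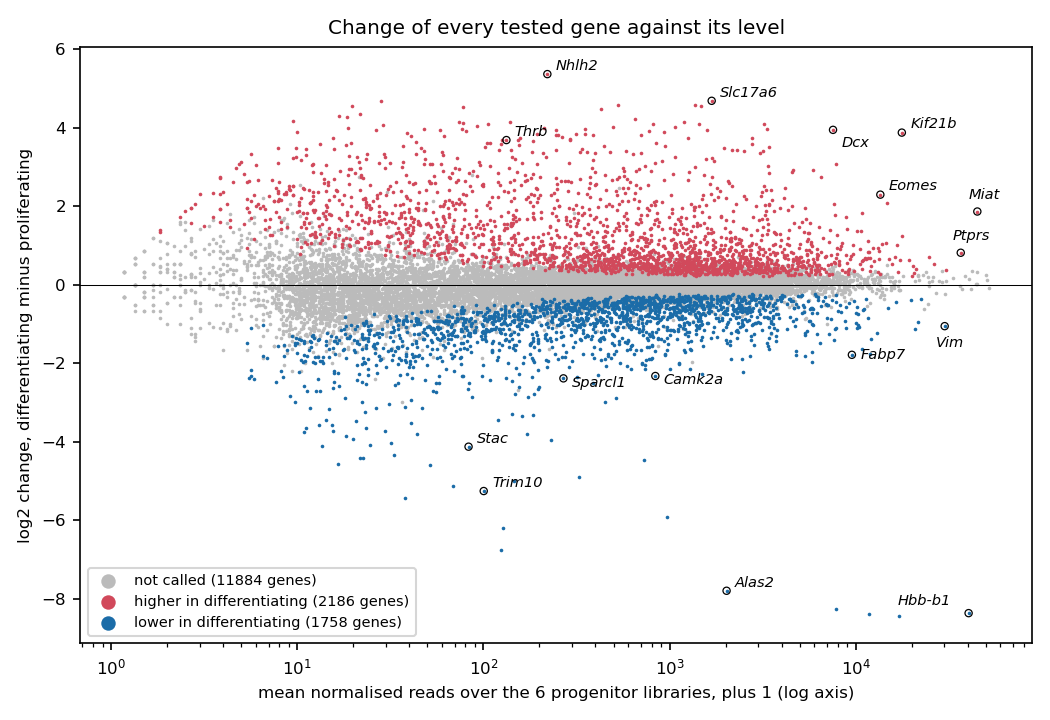
Log2 change (differentiating minus proliferating progenitors) against the mean of the 6 progenitor libraries, in normalised reads plus 1 on a log axis, with 1 point per tested gene. The 2186 genes that rose reach further up the level axis, and the deepest falls belong to globins and other red cell genes such as Hbb-b1 and Alas2.

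Large rises outnumbered large falls. At least 4-fold rises were found in 445 genes and at least 4-fold falls in 149, and at least 8-fold in 153 and 49. Among the 3166 tested genes with the highest means, from 1600 normalised reads up, 19.1% rose and 10.4% fell. The median genomic span, in the GENCODE M21 annotation of GRCm38, was 39.7 kb for genes that rose, 29.8 kb for genes that fell and 21.7 kb for all tested genes. Among the 3018 genes with the longest spans 24.8% rose and 15.0% fell, and among the 3018 with the shortest 6.89% and 5.57%. Genes with more reads also had a smaller SE (median 0.121 among the 3166 highest genes and 0.414 among the 3166 lowest), and the part of precision in the shares by level and by span was not tested.

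Among genes with a higher mean of at least 100 normalised reads, the 5 largest rises were in 3 transcription factor genes (Nhlh2, St18 and Neurod1), a vesicular transporter and a splicing factor. They head the 15 largest rises among called genes at that level whose groups did not overlap and which were in none of the marker lists for other cell types. The same conditions hold for the falls below. Nhlh2, a basic helix-loop-helix (bHLH) transcription factor of young neurons, was at 15, 13 and 4 normalised reads in proliferating libraries and at 403, 480 and 402 in differentiating ones (log2 change 5.36 ± 0.39, adjusted p = 3.58e-05). The gene for VGLUT2, which loads glutamate into vesicles (Slc17a6), went from 208, 114 and 79 to 2469, 3822 and 3409. St18, a relative of the Myt1 zinc finger proteins, went from 48, 41 and 34 to 825, 1209 and 991. In each of the 3 the lowest differentiating library stood far above the highest proliferating one. Neurod1, a bHLH factor that drives neuronal differentiation, was at 201, 93 and 68 against 2585, 2873 and 2413. D11Bwg0517e, the files' symbol for the neuronal splicing factor Rbfox3 (NeuN), was at 165, 118 and 88 against 2265, 2996 and 3240. For both, as for Slc17a6, proliferating replicate 1 was the highest of its group.

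The others were of several kinds. Gjd2, the neuronal gap junction protein connexin 36, was at 10, 5 and 3 against 137, 178 and 129 normalised reads. Chga, the secretory granule protein chromogranin A, was at 100, 64 and 43 against 1092, 1464 and 1157. Gipr, the receptor of the gut hormone GIP, was at 6, 9 and 5 against 81, 183 and 156. All 3 were low in proliferating pools, and separate groups were a condition of the list. With a pseudocount of 5 the log2 change of Gjd2 was 3.83 rather than 4.52. Plxna4, a semaphorin co-receptor, was at 436 ± 349 (SD, n = 3) against 5423, 7172 and 5469, and Tbr1, the T-box factor of early-born neurons, at 319, 109 and 106 against 2347, 3046 and 2664. Both had their highest proliferating value in replicate 1, and in replicates 2 and 3 alone their folds were 27.4 and 26.3 rather than 17.0 and 17.2. Xkr7, Nhlh1, A730020E08Rik, Cbln2 and Clvs1 complete the 15, with folds of 22.3, 17.5, 17.3, 17.1 and 17.1. Without proliferating replicate 1, the folds of Xkr7, Cbln2 and Plxna4 were 35.3, 28.2 and 26.1. Without proliferating replicate 3, that of Cbln2 was 10.1, and in replicates 2 and 3 alone that of Clvs1 was 25.9. The mean of the neuron libraries lay above that of differentiating progenitors for 12 of the 15 and below it for Slc17a6, Gjd2 and Nhlh1. The part of any neurons within the differentiating pools in these rises was not tested.

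The bases just upstream of the start of the leading genes are shown so that their sequence can be read beside these values. They are the 250 bases before the RefSeq start in GRCm38.p6, given 5′ to 3′ on the gene's strand, for the 4 highest-ranked rises with an entry in the table. The positions are chr3:102009895-102010144 (plus strand) for Nhlh2, chr7:51621580-51621829 (plus) for the 1st of 2 starts of Slc17a6, chr2:79456637-79456886 (minus) for Neurod1 and chr11:118761042-118761291 (minus) for D11Bwg0517e. Capitals mark matches on either strand to the motifs searched: CAGATG and CAGCTG, E-boxes bound by bHLH factors; GTGGGAA, a core bound by the Notch effector Rbpj; ACAAAG, bound by Sox factors; TATAAA; and CCAAT. No motif contains another.
Nhlh2: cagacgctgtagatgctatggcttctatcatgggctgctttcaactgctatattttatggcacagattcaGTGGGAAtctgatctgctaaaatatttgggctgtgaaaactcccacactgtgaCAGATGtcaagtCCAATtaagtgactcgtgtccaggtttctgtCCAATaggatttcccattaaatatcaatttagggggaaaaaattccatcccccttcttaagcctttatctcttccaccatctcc
Slc17a6: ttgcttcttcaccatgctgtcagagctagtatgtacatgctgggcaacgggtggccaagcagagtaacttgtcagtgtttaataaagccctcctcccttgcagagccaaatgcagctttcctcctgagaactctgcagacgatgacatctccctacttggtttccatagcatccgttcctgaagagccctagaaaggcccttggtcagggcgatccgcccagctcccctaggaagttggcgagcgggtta
Neurod1: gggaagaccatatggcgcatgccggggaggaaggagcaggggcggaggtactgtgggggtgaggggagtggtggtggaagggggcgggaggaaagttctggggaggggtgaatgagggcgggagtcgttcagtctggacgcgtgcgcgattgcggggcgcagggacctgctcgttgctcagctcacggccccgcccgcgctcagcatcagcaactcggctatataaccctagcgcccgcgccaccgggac
D11Bwg0517e: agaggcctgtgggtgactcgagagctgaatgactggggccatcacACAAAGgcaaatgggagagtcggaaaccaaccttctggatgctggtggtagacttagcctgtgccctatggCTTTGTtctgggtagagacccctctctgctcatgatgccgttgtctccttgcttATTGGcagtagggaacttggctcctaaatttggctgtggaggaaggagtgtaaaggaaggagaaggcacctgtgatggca
The upstream bases of Nhlh2 held 1 match to CAGATG, 1 to GTGGGAA and 2 to CCAAT, and those of D11Bwg0517e held 2 to ACAAAG and 1 to CCAAT. Slc17a6 and Neurod1 held no match to these letters in this stretch.

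Over whole windows of 300 bases, which add the 50 bases after the start, 720 of the 1041 genes that rose at least 2-fold and 511 of the 740 that fell at least 2-fold had an entry. CAGCTG was in 25.8% of the windows of genes that rose, in 18.8% of those of genes that fell, in 15.5% of those of all tested genes and in 16.3% of all windows in the table. CAGATG was in 15.4%, 12.4%, 11.7% and 17.2% in the same order, and ACAAAG in 18.2%, 13.1%, 14.0% and 18.7%. GTGGGAA was in 5.25%, 8.47%, 6.2% and 6.38%, TATAAA in 8.48%, 9.93%, 6.86% and 13.6%, and CCAAT in 35.2%, 34.6%, 37.5% and 37.4%. The ratio of observed to expected CpG had a median of 0.609 in windows of genes that rose and of 0.573 in those that fell, against 0.742 over all tested genes. These are descriptions of letters, and the differences between classes were not tested.

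**Figure D2:**
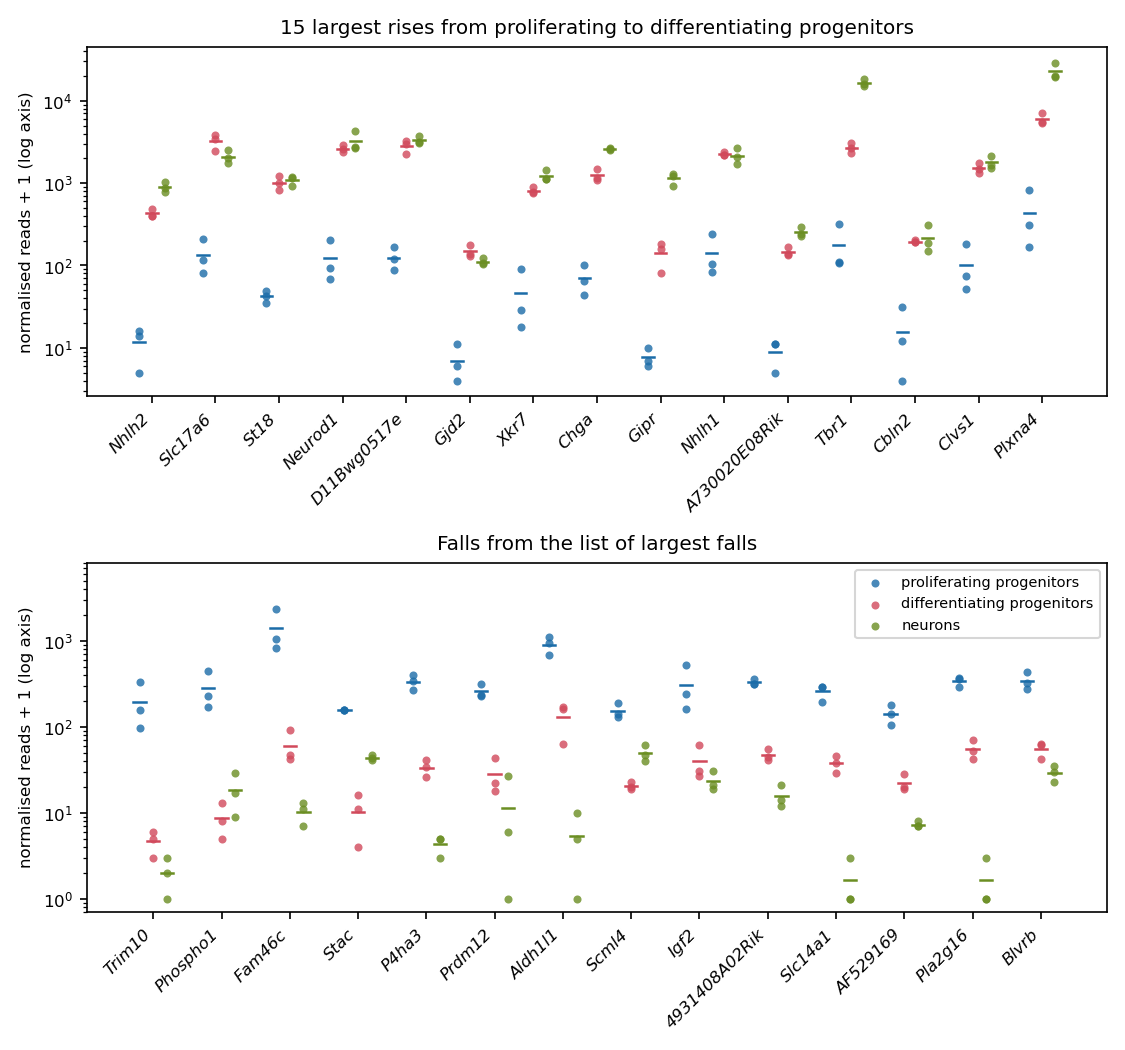
Normalised reads plus 1 (log axis) in each library of proliferating progenitors, differentiating progenitors and neurons for the 15 largest rises and for falls from the list of largest falls; points are libraries and bars are group means. In every gene shown the 3 differentiating libraries lie apart from the 3 proliferating ones, which was a condition for entering either list.

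Outside the marker lists for other cell types, where red cell genes such as Hbb-b1 and Alas2 fell further, the largest falls were in Trim10, Phospho1, Fam46c and Stac. Trim10, a gene of maturing red blood cells, was at 195 ± 124 normalised reads (SD, n = 3) against 2, 4 and 5 (log2 change -5.26 ± 0.57, adjusted p = 0.000238). Phospho1, a phosphatase, was at 448, 171 and 226 against 12, 7 and 4, and Fam46c, a poly(A) polymerase, at 2331, 821 and 1048 against 91, 46 and 41. In these 3, as in Blvrb (430, 272 and 326 against 62, 61 and 41), proliferating replicate 1 was highest and replicate 2 lowest, the order of Hbb-b1. The fold of Trim10 was 22.4 in replicates 2 and 3 alone and 20.5 with a pseudocount of 5, rather than 38.3. The part of red blood cells in these falls was not tested.

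Other falls were in genes of several kinds. Stac, an adaptor of voltage-gated calcium channels, was at 155, 154 and 156 against 15, 3 and 10 (log2 change -4.13 ± 0.44, adjusted p = 0.000219), and its proliferating values were nearly equal. P4ha3, a collagen prolyl hydroxylase, was at 265, 397 and 341 against 33, 40 and 25. The phospholipase gene Pla2g16 was at 364, 358 and 289 against 70, 41 and 51, and the urea transporter Slc14a1 at 288, 290 and 193 against 37, 45 and 28. Both Pla2g16 and Slc14a1 averaged 0.667 normalised reads in neurons. Aldh1l1, a folate enzyme and astrocyte marker, was at 932, 1093 and 681 against 129 ± 58.2 (SD, n = 3). Its adjusted p was 0.0217 over all libraries (0.000334 with the block) and reached 0.0833 when differentiating replicate 3, proliferating replicate 1 or proliferating replicate 2 was left out. Prdm12, a zinc finger factor, was at 315, 231 and 225 against 43, 17 and 21 with adjusted p = 0.0378, or 0.00755 with the block, and the call was lost when any progenitor library other than differentiating replicate 1 was left out (adjusted p up to 0.122). Igf2, the imprinted growth factor, was at 162, 239 and 515 against 61, 30 and 26. Proliferating replicate 3 was the highest for Igf2, as it was for the fibroblast collagens Col1a2 (58, 199 and 712) and Col3a1 (83, 303 and 1516), whose part in it was not tested. In replicates 2 and 3 alone Igf2 fell 12.2-fold rather than 7.3-fold. Without proliferating replicate 3 the log2 change of Col3a1 was -3.81 (adjusted p = 0.0817) and that of Col1a2 was -2.91, against -4.89 and -3.81 over all libraries, and without differentiating replicate 2 the call of both ended (adjusted p = 0.0893 and 0.062). Scml4, 4931408A02Rik and AF529169 fell 7.3-fold, 6.96-fold and 6.31-fold.

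For the fall list, the same stretches are printed for the 4 highest-ranked genes outside the marker lists for other cell types, to stand beside those of the rises. They lie at chr17:36869324-36869573 (plus) for Trim10, chr11:95824250-95824499 (plus) for Phospho1, chr3:100489193-100489442 (minus) for Fam46c, named Tent5c in RefSeq, and chr9:111690349-111690598 (minus) for Stac.
Trim10: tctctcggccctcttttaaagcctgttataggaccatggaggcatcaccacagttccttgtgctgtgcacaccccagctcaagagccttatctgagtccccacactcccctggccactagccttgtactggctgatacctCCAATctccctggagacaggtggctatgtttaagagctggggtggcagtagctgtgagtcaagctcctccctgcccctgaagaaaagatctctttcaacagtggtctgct
Phospho1: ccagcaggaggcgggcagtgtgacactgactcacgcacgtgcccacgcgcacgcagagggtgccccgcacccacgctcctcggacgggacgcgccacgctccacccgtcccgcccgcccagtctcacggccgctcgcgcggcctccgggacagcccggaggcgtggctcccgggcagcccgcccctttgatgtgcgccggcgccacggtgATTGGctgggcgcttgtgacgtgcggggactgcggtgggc
Fam46c: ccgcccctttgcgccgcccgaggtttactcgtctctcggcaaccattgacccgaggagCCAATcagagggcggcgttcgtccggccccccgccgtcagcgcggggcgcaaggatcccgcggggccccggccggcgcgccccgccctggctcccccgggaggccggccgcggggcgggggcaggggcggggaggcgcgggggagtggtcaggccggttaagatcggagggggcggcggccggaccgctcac
Stac: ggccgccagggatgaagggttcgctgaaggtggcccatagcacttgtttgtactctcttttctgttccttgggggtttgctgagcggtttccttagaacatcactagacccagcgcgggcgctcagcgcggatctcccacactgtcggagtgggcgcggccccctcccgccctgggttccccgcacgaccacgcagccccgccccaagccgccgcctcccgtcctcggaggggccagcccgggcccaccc
Trim10, Phospho1 and Fam46c each held 1 match to CCAAT, on either strand, and Stac held none of the motifs searched in these bases.

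Few genes went from near silence to clear signal. In 8 genes every proliferating library was under 10 normalised reads while the differentiating mean was at least 50; those were Gipr, Has2, Tcfap2d, 2700046A07Rik, Ly6g6e, Fam160a1, Jakmip1 and Sorcs3. This set was listed after its values were seen. Has2, a hyaluronan synthase, was at 3, 7 and 4 against 84, 75 and 65, and at 2, 2 and 1 in neurons. Its signal thus lay in the differentiating pools, with next to none in the other 2 groups. The reverse pattern held in 11 genes, among them the red cell genes Trim10, Spna1, Rhd, Epb4.2, Kel and Ermap. Also among them were Hebp1, Fam198b and the matrix genes Lamc3 (32, 69 and 194 against 7, 0 and 3) and Col6a1, and in both matrix genes proliferating replicate 3 was highest. Col6a1 did not pass the filter on low values and was not tested.

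Ranked by normalised reads gained or lost rather than by fold, other genes led. Miat, a long non-coding RNA, gained most: 24856, 15891 and 18085 normalised reads became 71571, 60619 and 79465 (log2 change 1.86 ± 0.18, adjusted p = 0.000144). The kinesin Kif21b was at 3458, 2095 and 1564 against 27649, 38565 and 32942, and the receptor phosphatase Ptprs at 21562, 26770 and 31683 against 38415, 49334 and 52545. Groups that did not overlap were a condition of this ranking, so their separation is no result. Plxna2, a semaphorin co-receptor, was at 7241, 5713 and 4265 against 21198, 26200 and 23864. Eomes (Tbr2), the T-box factor that defines intermediate progenitors, was at 5939, 4485 and 3585 against 19440, 24416 and 23584, and its neuron mean was 1560. Sox4, Dcx and Igfbpl1 made up the 8. Igfbpl1, an insulin-like growth factor binding protein, was at 2081, 1663 and 1305 against 13016, 16774 and 12459.

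Among genes in none of the marker lists for other cell types, Vim, the intermediate filament of radial glia, lost most, though less than the globin Hbb-b1: it was at 38782, 46667 and 36590 against 21810, 19562 and 17177 (log2 change -1.06 ± 0.12, adjusted p = 0.000308). Cdon, a Hedgehog co-receptor, was at 26644, 28423 and 30041 against 16342, 12508 and 15076, and Pea15a, a death effector domain protein, at 20767, 18595 and 15861 against 7117, 4837 and 4413. Each kept at least 4413 normalised reads in every differentiating library. Ptprz1, Sfrp1, Fabp7 and Notch2 fell between 2.36-fold and 3.45-fold. Nes, the filament nestin, was at 34854, 24762 and 24703 against 21558, 8954 and 10564, lower in each same-numbered pair. Its adjusted p was 0.0279 without the replicate block and 0.000129 with it. Without the block the call ended when any progenitor library other than differentiating replicate 1 was left out (adjusted p up to 0.103).

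Markers of both progenitor types sided with the labels. Of 30 tested markers of intermediate progenitors, 28 rose and 1, Pde1b, fell. The rises include Btg2, the gene of the sorting gate, whose difference is no finding. Of 37 radial glia markers, 25 fell and 1, Pla2g7, rose. Mt3, a metallothionein of glia, was at 2332, 3076 and 2011 normalised reads against 529, 550 and 439, and Ddah1 at 10541, 9477 and 7701 against 3204, 2050 and 1916. Plcb1, a phospholipase C, was at 148, 131 and 88 against 1387, 2743 and 1936, and Rnd2, a small GTPase of migrating neurons, at 988, 730 and 554 against 5073, 6782 and 6107. The neuron means of Plcb1 and Rnd2 were higher still, 3040 and 9020. Those of Mfap4, Elavl2, Elavl4 and Abcg1, from the same list, lay below their differentiating means. These lists were picked with earlier results of these data known and are no independent evidence of their direction. Of 34 markers of young neurons, 27 rose and 2, Ncam1 and Nrcam, fell, with 4 falls under the block and 1 without any 1 of 7 libraries. Whether neurons within the differentiating pools had a part in those rises, or in the rises of intermediate progenitor markers, was not tested.

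Transcription factors of the neuronal bHLH family mostly rose. Of 21 tested, 12 rose and 2 fell (0 fell without differentiating replicate 2 or 3), with a median log2 change of 1.01 against -0.02 over all genes. Neurod2 was at 981, 488 and 333 normalised reads against 5342, 5735 and 5447, and Neurod6 at 845, 341 and 215 against 5717, 6832 and 6029. Bhlhe22, a bHLH factor of projection neurons, was at 83, 75 and 68 against 426, 513 and 479 (log2 change 2.63 ± 0.11, adjusted p = 5.61e-06). The proliferating values of Neurod2 and Neurod6 were highest in replicate 1, while those of Bhlhe22 were nearly even. In replicates 2 and 3 alone Neurod6 rose 23.6-fold rather than 15.6-fold. Among the opposing Hes, Hey and Id repressors, 2 of 11 rose and 4 fell. Hes6, which antagonises Hes1, was at 2267, 1696 and 1716 against 4577, 4935 and 5114. Hes1, the Notch-driven repressor, was at 1713, 1935 and 2284 against 1307, 761 and 942, and Id4 at 7902, 6898 and 7585 against 4673, 2247 and 2727. In both, differentiating replicate 1 lay nearest to the proliferating libraries. With the block 4 of these repressors rose and 6 fell.

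Sox factors changed in both directions. The SoxC factors Sox4 and Sox11, which promote neuronal gene expression, rose with Sox5. Sox11 was at 3690, 2597 and 2339 normalised reads against 9623, 8734 and 6919 (log2 change 1.57 ± 0.21, adjusted p = 0.000816). Sox4, whose symbol is on more than 1 row of the table, was at 14015, 9362 and 8932 against 27454, 23747 and 22982. Sox9, Sox3 and Sox13 fell, with adjusted p of 0.0277, 0.0317 and 0.0476, and no call of these 3 held without differentiating replicate 2 or 3 or without any 1 proliferating library, while with the block their adjusted p was 0.000288, 0.00169 and 0.0038. Sox9, a factor of radial glia, was at 8287, 7255 and 7487 against 5896, 2987 and 3176, and differentiating replicate 1 stood above the other 2. With the block, and in replicates 2 and 3 alone, 7 of the 11 Sox genes fell, and without differentiating replicate 1, 5 did.

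Homeobox genes rose more often than they fell. Of 46 homeobox genes, 13 rose and 6 fell, and 21 rose with the block. Lhx9, a LIM homeobox factor, was at 64, 95 and 97 normalised reads against 925, 867 and 833 (log2 change 3.37 ± 0.17, adjusted p = 1.08e-05). Onecut2 was at 55, 59 and 57 against 260, 359 and 350. Emx1, the homeobox factor of the dorsal telencephalon, was at 1839, 1727 and 1793 against 3982, 3711 and 3522 and at a mean of 1700 in neurons. In all 3 the libraries of a group lay close together and the groups well apart, which the choice by smallest adjusted p favours. The 6 that fell came to 2 without differentiating replicate 3, 3 without proliferating replicate 2 and 2 without proliferating replicate 3. Of 18 forkhead genes 3 rose (16.7%, near the share over all genes) and 1, Foxk1, fell, a call lost without differentiating replicate 2 or 3, proliferating replicate 1 or 2, or neuron replicate 2 (adjusted p up to 0.122), and 15 changed by less than 0.5 on the log2 scale. The 3 included Foxp4, at 2105, 2425 and 2729 against 4785, 7061 and 7337.

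Named zinc finger factors divided along the same line. Of 77 tested, 25 rose and 12 fell, and 22 fell with the block and in replicates 2 and 3 alone. Myt1, a factor that represses progenitor genes, was at 1251, 1047 and 889 normalised reads against 6201, 9408 and 8785 (log2 change 2.93 ± 0.17, adjusted p = 1.65e-05). Insm1, needed for basal progenitors, was at 2700, 2359 and 1881 against 5504, 5866 and 5309, and its relative Insm2 at 1, 2 and 0 against 36, 34 and 32, a log2 change of 4.27, or of 2.71 with a pseudocount of 5. Prdm8 was at 107, 50 and 32 against 807, 1080 and 891. No library of these genes crossed over to the other group, but they were picked by smallest adjusted p, so this is no result. Among those that fell were Gli3, the Hedgehog effector, Prdm16, a regulator of radial glia, Rest, the repressor of neuronal genes, and 5 Klf factors (Klf5, Klf6, Klf11, Klf15 and Klf16), while Klf9 and Klf12 rose.

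Among Zfp genes known by number, rises outnumbered falls, and most members changed by little. Of those tested, 65 rose (18.4%) and 6 fell (1.7%), against backgrounds of 13.8% and 11.1%, with a median log2 change of 0.13. Of all tested members, 303 changed by less than 0.5 on the log2 scale. Zfp238 (Rp58), a repressor needed for cortical neurons, was at 7158, 5832 and 4925 normalised reads against 15091, 16640 and 14173. Zfp57, which maintains imprints, was at 1031, 855 and 931 against 1993, 2093 and 2253, and Zfp608 at 2070, 2008 and 2215 against 3371, 3355 and 3343. The 3 values of a group of Zfp608 lay within a narrow band, so that a small change passed. With the block 125 rose and 26 fell, in replicates 2 and 3 alone 100 and 11, and with total-sum scaling 42 and 12. Without differentiating replicate 2 or 3 the rises numbered 35 and 37, and without proliferating replicate 2 or 3 they numbered 41 and 43. The falls lay between 2 and 7 when 1 library was left out. Where members are alike in sequence, reads could be shared among them in the authors' counting. How alike they are was not tested.

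Nuclear receptors, transcription factors controlled by hormones and lipids, went down more often than up: of 31 tested, 5 rose and 12 fell (9 rose with the block). Thrb, thyroid hormone receptor beta, was at 32, 22 and 8 normalised reads against 218, 280 and 231, with a neuron mean of 28.3. Nr2e1 (Tlx), which keeps neural stem cells dividing, was at 7616, 7686 and 7269 against 4318, 2974 and 2863. The glucocorticoid receptor Nr3c1 was at 621, 559 and 475 against 275, 243 and 201, and the retinoic acid receptor Rara at 278, 256 and 253 against 142, 81 and 90. Neither group overlapped the other in these 4, which were picked by smallest adjusted p, so their separation is no result. Others that fell were Rarg, Rxra, Rora, Rorb, Ppard, Nr1d2, Nr1i3 and the immediate early genes Nr4a1 and Nr4a2. Of 31 T-box, nuclear factor I, Ebf, Tead and Ets genes, 8 rose and 5 fell (11 and 10 fell with the block and in replicates 2 and 3 alone, and 3 without differentiating replicate 3 or proliferating replicate 2). Nfix was at 12211, 12677 and 12609 against 22616, 19585 and 18351, and Nfia and Nfib rose with it. Etv5, an Ets factor downstream of FGF, was at 2088, 2064 and 1690 against 761, 575 and 553.

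Genes of chromatin rose more often than they fell, again by small steps. Of 152 remodelling and histone modifying genes tested, 40 rose (26.3%) and 8 fell (5.26%), with a median log2 change of 0.14, and 123 changed by less than 0.5. Chd7, a remodeller mutated in CHARGE syndrome, was at 7093, 7226 and 7209 normalised reads against 11433, 12322 and 12909 (log2 change 0.77 ± 0.08, adjusted p = 0.000167), with a neuron mean of 1990. Kdm6b, which removes methyl groups from histone H3, was at 3893, 4230 and 3889 against 6575, 7439 and 6724, and Jarid2, a polycomb partner, at 1047, 1071 and 998 against 1695, 2067 and 1695. Actl6b, the subunit of the neuronal BAF complex, was at 28, 15 and 12 against 94, 203 and 210. The other 3 changed by less than Actl6b. None of the 4 overlapped between groups, which their choice by smallest adjusted p favours. In replicates 2 and 3 alone Actl6b rose 14.4-fold rather than 8.78-fold. Dnmt3a, a DNA methyltransferase, was at 7679, 7803 and 7648 against 5340, 4245 and 4438, and Hmga2 at 1381, 1038 and 1121 against 402, 236 and 305. With the block 73 rose and 19 fell, in replicates 2 and 3 alone 61 and 15, and with total-sum scaling 13 fell. Without differentiating replicate 2 the counts were 25 and 5, without differentiating replicate 3 they were 23 and 5, and without proliferating replicate 2 the falls were 5.

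Splicing regulators and other RNA-binding proteins rose more often than they fell. Of 46 tested, 19 rose and 5 fell (8 fell with the block, 3 without proliferating replicate 2). Srrm4, which promotes inclusion of neuronal microexons, was at 1566, 984 and 844 normalised reads against 6863, 8443 and 8619 (log2 change 2.86 ± 0.20, adjusted p = 3.44e-05). Celf3 was at 407, 241 and 278 against 1955, 2654 and 2667, and Rbfox2 at 2817, 2513 and 2362 against 6603, 8800 and 7802. All 3 differentiating libraries stood above all proliferating ones in each, which the choice by smallest adjusted p favours. The 5 that fell were Msi1, Msi2, Qk, Mbnl1 and Rbm20; the Musashi proteins and Quaking are known from progenitors and glia.

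**Figure D3:**
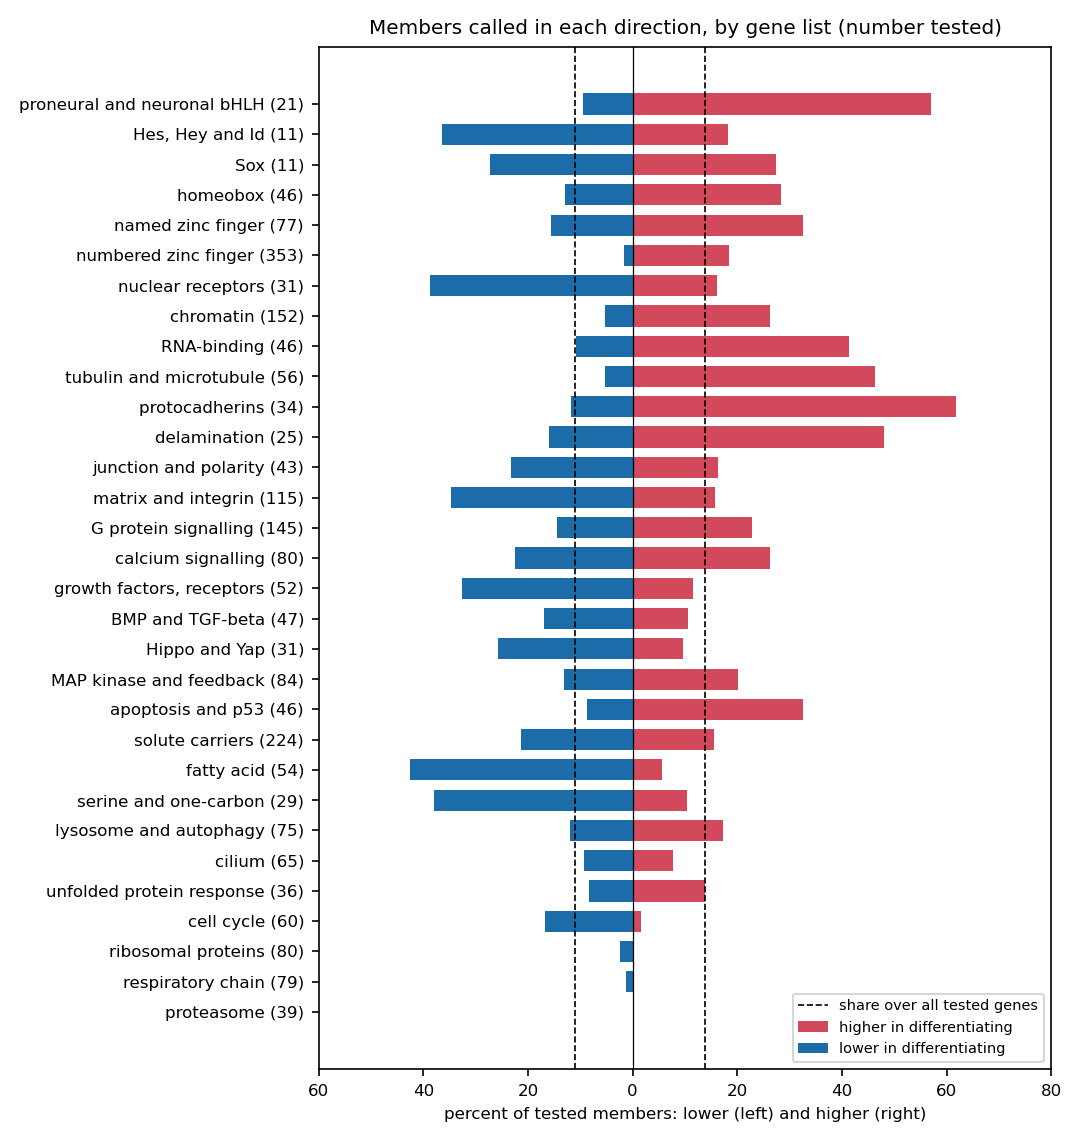
Share of tested members that rose (right) and fell (left) in differentiating progenitors for the functional and transcription factor lists shown, in percent, with the number tested in brackets; dashed lines mark the 13.8% and 11.1% over all tested genes. Among these lists protocadherins and neuronal bHLH factors reach the highest shares of rises, fatty acid genes the highest share of falls, and the proteasome has none.

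Cell contacts changed in both directions. Of 43 genes of junctions and apical polarity, 7 rose (16.3%) and 10 fell (23.3%). The tight junction gene Cldn12 was at 2206, 2172 and 1903 normalised reads against 1200, 887 and 785, and the polarity scaffold Mpp5 (Pals1) at 1539, 1745 and 1421 against 987, 1041 and 1002. No library of either gene overlapped the other group, which is no result in genes picked by smallest adjusted p. Cdh2, the N-cadherin of the adherens junction, its partner Ctnna1, and Crb2, Pard6b, Pvrl3, Shroom3 and Plekha7 fell as well. The neuronal alpha-catenin Ctnna2 went the other way, from 513, 457 and 384 to 889, 1247 and 956, as did Numbl, from 1420, 1158 and 1024 to 2883, 3228 and 2931, and Pard3, from 2044, 2342 and 2289 to 3551, 4183 and 3767. With the block 11 rose and 20 fell, in replicates 2 and 3 alone 20 fell, with total-sum scaling 17 fell, and without differentiating replicate 3 the falls numbered 6.

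Genes tied to leaving the ventricular surface rose more often. Of 25 tested, 12 rose and 4 fell. Akna, a centrosomal protein that promotes delamination, was at 1228, 1016 and 980 normalised reads against 2791, 3374 and 3719 (log2 change 1.61 ± 0.16, adjusted p = 0.000172). Lzts1, which loosens apical junctions, was at 840, 582 and 434 against 2972, 3375 and 3001. The repressors Scrt1 and Scrt2, the GTPases Rnd2 and Rnd3 and the forkhead genes Foxp2 and Foxp4 rose too. Lpar1, a lysophosphatidic acid receptor of the ventricular zone, was at 2260, 2136 and 2023 against 891, 744 and 772 and at a mean of 12.3 in neurons. Akna had a neuron mean of 811, below both its own differentiating and proliferating values.

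Extracellular matrix and integrin genes fell more often than they rose. Of 115 tested, 40 fell (34.8%) and 18 rose (15.7%), with a median log2 change of -0.54. Sparcl1, a matricellular protein of radial glia, was at 452, 456 and 444 normalised reads against 95, 85 and 76 (log2 change -2.39 ± 0.14, adjusted p = 1.52e-05). The protease Adamts18 was at 1458, 1837 and 2100 against 439, 397 and 489, and Adamts3 at 1115, 1126 and 1091 against 482, 399 and 381. The values of Sparcl1 and Adamts3 hardly varied within a progenitor group. Neuron means of Sparcl1, Adamts18 and Adamts3 were 697, 2610 and 5750, above the means of both progenitor groups. Of the integrins, Itga1, Itga6, Itgav, Itgb3, Itgb5 and Itgb8 fell, and Itga3, Itga4 and Itga9 rose. The proteases Adamts17 (35, 23 and 25 against 212, 343 and 243) and Adamts4 (101, 95 and 97 against 420, 345 and 371) rose, and so did the heparan sulfate proteoglycan Gpc2 (2656, 2425 and 2630 against 6749, 8274 and 9741). Without differentiating replicate 2 or 3 the falls numbered 23 and 25, and without proliferating replicate 2 or 3 they numbered 24 and 25. Meningeal markers summed to 8853 to 15979 normalised reads in proliferating libraries and 8226 to 10597 in differentiating ones, and 6 of 12 tested fell (1 without differentiating replicate 2, 3 without differentiating replicate 3 or proliferating replicate 2 or 3), with Lama1, Col1a1, Col1a2 and Col3a1 in both lists. Their part in the falls of other matrix genes was not tested.

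Protocadherins, adhesion molecules that give neurons an individual surface code, had the highest share of rises among the functional lists. Of 34 tested, 21 rose (61.8%) and 4 fell (11.8%), with a median log2 change of 1.32. The rises included 18 genes of the clustered beta group. Pcdhb19 was at 60, 63 and 46 normalised reads against 132, 133 and 149, and Pcdhb17 at 33, 23 and 31 against 127, 91 and 79. Pcdhb12 was at 0, 1 and 0 against 10, 7 and 12, low in both groups, with a log2 change of 3.05 that was 3.79 at a pseudocount of 0.5 and 1.45 at 5. It is among the 21 rises but passed the filter on low values only through the neuron libraries, at 50, 36 and 34. Outside the cluster, Pcdh7 was at 263, 240 and 274 against 1042, 878 and 711, and Pcdh10, Pcdh8, Pcdh9 and Pcdh1 fell. The 4 falls were 2 without differentiating replicate 2 or 3 or proliferating replicate 2. The beta genes are single-exon copies of like sequence, so reads could be shared among them.

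Tubulins and microtubule-associated proteins rose in 26 of 56 cases and fell in 3 (Tubb2a, Mtap7 and Mtap7d3). Dcx, the microtubule protein of migrating neurons, was at 1944, 778 and 499 normalised reads against 13118, 15730 and 13285, and in replicates 2 and 3 alone its fold was 23.2 rather than 15.4. Mtap2 (MAP2) was at 5704, 5961 and 4900 against 11154, 12081 and 10983, and Dpysl5 at 4503, 3921 and 3544 against 9801, 11748 and 9990. Tiam2, an activator of Rac, was at 396, 312 and 251 against 1961, 3660 and 3542, and Arhgef2 at 2961, 3410 and 3161 against 6751, 8398 and 8546 (log2 change 1.31 ± 0.10, adjusted p = 5.38e-05). In Tiam2 differentiating replicate 1 was the lowest of its group, yet well above every proliferating library. Of the kinases downstream of Rac, Pak1, Pak3 and Pak7 rose.

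Growth factors, their receptors and their binding proteins fell more often than they rose. Of 52 such genes, 17 fell (32.7%) and 6 rose (11.5%), with 13 rises under the block. Ntrk2 (TrkB), the receptor of BDNF, was at 4380, 3790 and 3400 normalised reads against 1269, 976 and 901 (log2 change -1.89 ± 0.14, adjusted p = 4.44e-05). Ptn, the ligand pleiotrophin, was at 7486, 10581 and 8637 against 2620, 3081 and 2441, and its receptor Ptprz1 at 16905, 17756 and 14399 against 6319, 5155 and 4385. Ligand and receptor were thus both lower in every differentiating library. Kit was at 220, 158 and 210 against 648, 919 and 795, while its ligand Kitl fell. Erbb2, Vegfa, Vegfb, Pdgfc, Hbegf, Il6st and Cntfr fell, and Insr, Gfra2 and Ddr1 rose.

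Of 145 G protein-coupled receptors, neuropeptides and Rgs proteins, 33 rose (22.8%) and 21 fell (14.5%). Cnr1, the cannabinoid receptor CB1, was at 195 ± 30.0 normalised reads (SD, n = 3) against 1218, 1094 and 1061 (log2 change 2.53 ± 0.13, adjusted p = 1.08e-05). Nxph4, a secreted ligand of neurexins, was at 39, 32 and 51 against 600, 639 and 520. Rgs16, which shortens G protein signals, was at 418, 330 and 301 against 1501, 1866 and 1683, and Sstr3, a somatostatin receptor of the cilium, at 39, 17 and 21 against 367, 406 and 417. All 3 differentiating libraries stood above the proliferating ones in each of these genes, which were picked by smallest adjusted p. Receptors for peptides and amines that rose included Adcyap1r1, Sstr2, Crhr1, Npy1r, Tacr1, Oprd1, Drd2 and Htr3a, the last an ion channel. Those that fell included the lipid receptors Lpar1 and S1pr1 and the endothelin receptors Ednra and Ednrb.

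Calcium signalling genes changed often and in both directions, with 21 of 80 up (26.2%) and 18 down (22.5%). The kinase Camk2a was at 1433, 1424 and 1335 normalised reads against 321, 250 and 264 (log2 change -2.33 ± 0.13, adjusted p = 1.13e-05), and Camk1d at 829, 748 and 628 against 175 ± 29.3 (SD, n = 3). Camk2d and Camk2g fell as well, while Camk2b rose. The calcium pump Atp2b2 went from 490, 337 and 251 to 2529, 3372 and 3375, and the transcription factor Nfatc2 from 238, 158 and 157 to 899, 967 and 1153, with a neuron mean of 187. Without differentiating replicate 2 or proliferating replicate 2 the falls numbered 10 and 9.

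Shares of rises and falls were 10.6% and 17.0% for BMP and TGF-beta genes and 9.68% and 25.8% for Hippo genes. For MAP kinase genes they were 20.2% and 13.1%, against 13.8% and 11.1% over all tested genes. Of 47 BMP and TGF-beta genes, 5 rose and 8 fell (15 and 16 with the block, 9 rises in replicates 2 and 3 alone). The receptor Bmpr1b was at 855, 806 and 794 normalised reads against 427, 330 and 414, and the secreted modulator Bmper at 1147, 1591 and 1555 against 563, 561 and 628. Grem1, a BMP antagonist, was at 4, 2 and 2 against 34, 36 and 30 (log2 change 3.27, or 2.33 with a pseudocount of 5), while the antagonists Nog and Fst fell. Of 31 Hippo genes, 3 rose and 8 fell. The co-activators Yap1 and Wwtr1 (Taz) fell with their targets Ctgf, Cyr61 and Axl. Cyr61 was at 3478, 3997 and 4259 against 2113, 1182 and 1506, Axl at 1657, 2127 and 2179 against 1011, 896 and 1025, and Wwtr1 at 3055, 3323 and 2616 against 2237, 1558 and 1371. In Wwtr1 differentiating replicate 1 came near the lowest proliferating library. The block gave 9 and 15 Hippo genes, replicates 2 and 3 alone gave 13 falls, and without differentiating replicate 3 or proliferating replicate 2 the falls were 5. Of 84 genes of MAP kinases and their feedback, 17 rose and 11 fell (26 and 19 with the block, 18 falls in replicates 2 and 3 alone, 7 falls without differentiating replicate 2). Dusp4, a phosphatase induced by ERK, was at 477, 293 and 279 against 2264, 2182 and 2025, while Spry2, another feedback inhibitor, was at 554, 630 and 586 against 280, 264 and 314. The kinases Mapk8, Mapk9 and Mapk10 (JNK1 to JNK3 in protein names) all rose.

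Solute carriers, the membrane transporters, fell slightly more often than they rose. Of 224 tested, 48 fell (21.4%) and 35 rose (15.6%). Slc44a5, of the choline transporter-like family, was at 198, 231 and 243 normalised reads against 1170, 1406 and 1352 (log2 change 2.54 ± 0.11, adjusted p = 5.61e-06). Slc30a10, a manganese exporter, was at 1585, 1335 and 1446 against 6013, 7179 and 7092, and Slc43a2, an amino acid transporter, at 182, 158 and 201 against 602, 783 and 803. In each gene the libraries of a group agreed closely. Transporters that fell included the amino acid carriers Slc1a5, Slc7a1, Slc7a5, Slc7a11 and Slc38a3, the glucose carriers Slc2a1 and Slc2a3, the lactate carriers Slc16a1 and Slc16a3 and the folate carriers Slc19a1 and Slc46a1. The red cell carriers Slc4a1 and Slc25a37 are also among them.

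Genes of fatty acid metabolism had the highest share of falls among the functional lists, 23 of 54 (42.6%), and 3 rose. Acss1, which makes acetyl-CoA from acetate in mitochondria, was at 3747, 4536 and 4354 normalised reads against 1323, 1224 and 1063 (log2 change -1.81 ± 0.12, adjusted p = 2.59e-05). Acsbg1, an acyl-CoA synthetase of radial glia, was at 1081, 1092 and 844 against 282, 217 and 183, with a neuron mean of 3.0. The beta-oxidation enzymes Acaa2 (690, 820 and 661 against 269, 205 and 164) and Hadh (951, 1095 and 935 against 523, 491 and 491) fell with Acadl, Acadm and Cpt1a. Ppargc1a, the co-activator of mitochondrial genes, was at 589, 660 and 509 against 229, 155 and 141. Enzymes of synthesis and elongation, Fasn, Acaca, Acacb, Scd1, Elovl5 and Elovl6, fell too, so both arms of the pathway are represented. Those that rose were Acly, Fabp5 and Acox3. With the block 7 rose, in replicates 2 and 3 alone 6 did, and without proliferating replicate 2 the falls numbered 15.

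Serine and one-carbon metabolism, which supplies nucleotide synthesis, had 11 of 29 genes down and 3 up. The 3 enzymes of serine synthesis all fell. Phgdh was at 2159, 2222 and 1962 normalised reads against 1178, 701 and 722, Psat1 at 7727, 8303 and 7572 against 4873, 3294 and 3521, and Psph at 662, 806 and 697 against 397, 318 and 375. Differentiating replicate 1 was the highest of its group in each, and still below every proliferating library. The mitochondrial folate enzyme Aldh1l2 rose from 179, 211 and 191 to 312, 422 and 330. The block gave 5 rises, replicates 2 and 3 alone gave 17 falls, and without differentiating replicate 3, proliferating replicate 2 or proliferating replicate 3 the falls numbered 6, 7 and 7.

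Large complexes of every cell barely differed. Of 80 cytoplasmic ribosomal protein genes, 2 fell, Rpl12 and Rpl15, with a median log2 change of -0.07, and 78 changed by less than 0.5. Of 79 nuclear-encoded respiratory chain genes, 1 fell, Atp5g1, with a median of -0.09 and 76 under 0.5. Of 39 proteasome genes, limma called 0 and gave 2 at an unadjusted p under 0.05, with a median of 0.02 and 38 under 0.5. Their median SEs of 0.22, 0.16 and 0.20 set the size of change that could be detected. With the block, which has a smaller spread, 12 ribosomal genes fell, 14 respiratory genes fell and 2 rose, and 4 proteasome genes fell and 3 rose. In replicates 2 and 3 alone the falls were 4, 4 and 1, with 1 proteasome rise. With total-sum scaling the falls were 4, 3 and 1. When 1 library was left out, ribosomal falls lay between 1 and 3 and respiratory falls between 0 and 3. The call of Rpl15 ended without any 1 of the 9 libraries and that of Atp5g1 without any 1 of 5, with adjusted p up to 0.123 and 0.106. Ribosomal protein genes share reads with many processed pseudogenes.

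**Figure D4:**
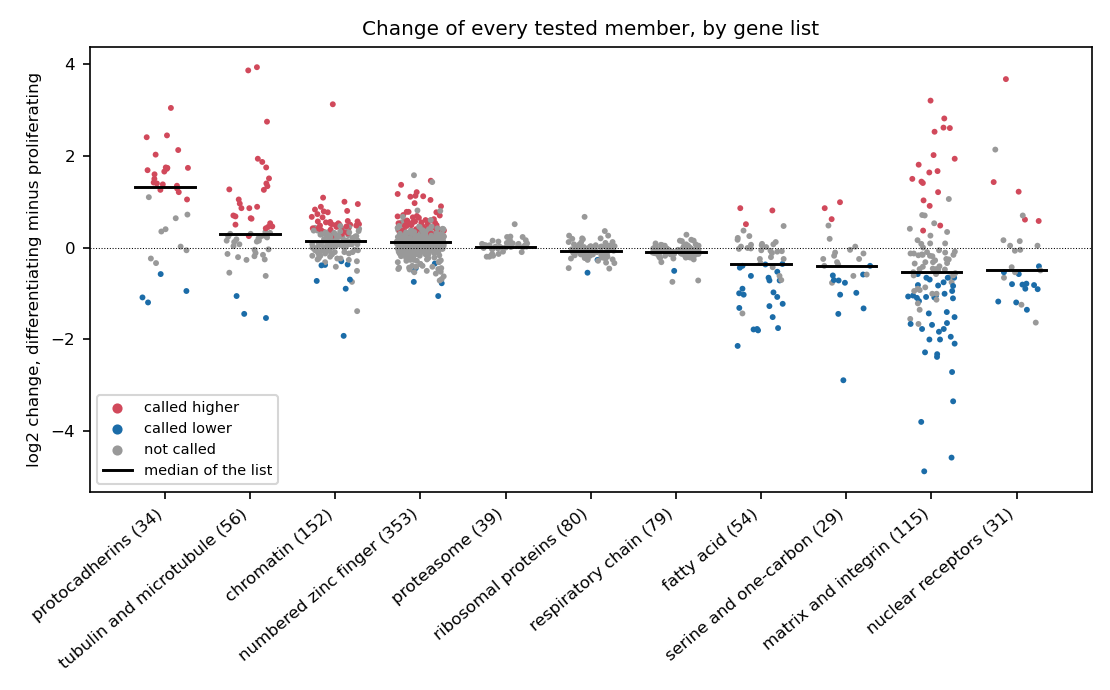
Log2 change (differentiating minus proliferating progenitors) of every tested member of 11 lists, coloured by call, with a bar at each list's median and the number tested in brackets. Proteasome, ribosomal and respiratory genes lie in a narrow band about 0, while protocadherins have a median of 1.32 and matrix and integrin genes one of -0.54.

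Cilium, stress and lysosome genes were mixed. Of 65 cilium genes, 5 rose and 6 fell (14 and 18 with the block, 13 falls in replicates 2 and 3 alone), and the falls came to 2 or 3 without differentiating replicate 2 or 3 or proliferating replicate 2 or 3. Stk36, a Hedgehog pathway kinase, was at 619, 725 and 747 normalised reads against 1595, 2302 and 2454. Of 36 genes of the unfolded protein response and stress, 5 rose and 3 fell (9 and 11 with the block, 7 falls in replicates 2 and 3 alone, 2 rises without differentiating replicate 2 or 3 or proliferating replicate 1 or 3). Ddit4, an inhibitor of mTORC1, was at 2613, 2520 and 2062 against 4479, 5108 and 4743, and the chaperone partner Bag3 at 234, 190 and 214 against 104, 46 and 66. Lysosome and autophagy genes had 13 of 75 up and 9 down, and total-sum scaling turned this to 8 and 15. Ulk1, the kinase that starts autophagy, was at 2520, 2734 and 2745 against 4646, 5515 and 5509, while the protease Ctsb was at 2835, 3014 and 2814 against 1654, 1755 and 1512. Both kept their direction and call with total-sum and median-of-ratios scaling. The block gave 28 and 17, replicates 2 and 3 alone gave 25 rises, and without 1 library the rises lay between 3 (differentiating replicate 2) and 14.

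Apoptosis and p53 genes rose in 15 of 46 cases (32.6%) and fell in 4. Bmf, a pro-apoptotic BH3 protein, was at 223, 174 and 148 normalised reads against 881, 913 and 804 (log2 change 2.27 ± 0.18, adjusted p = 5.79e-05). Gadd45g was at 1005, 1579 and 2036 against 3326, 6272 and 7742, and replicate 1 was lowest in both groups. The protective Bcl2l1 and Bcl2l2 rose beside Bmf and Hrk. The falls numbered 8 with the block, 7 in replicates 2 and 3 alone and 2 without differentiating replicate 2 or 3. Of 60 cell cycle genes, 10 fell and 1, Kif20b, rose. Those that fell belong to G1 and the start of replication, such as Ccnd1 at 4176, 3084 and 2727 against 1897, 1700 and 1752, Mcm4 at 4608, 4888 and 4907 against 3036, 2768 and 2794, and Cdt1 at 2112, 2056 and 2399 against 1486, 1110 and 1303. The block gave 5 rises and 16 falls and replicates 2 and 3 alone 4 and 17, and without 1 library the rises lay between 0 and 5.

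Markers of cells other than progenitors of the lateral cortex differed too. Cajal-Retzius markers rose in 12 of 13 cases and fell in 1, with a log2 change of -1.86. Their sum was 1841 to 2001 normalised reads in proliferating libraries and 5324 to 6052 in differentiating ones. Lhx1, a LIM homeobox factor of these cells, was at 1, 0 and 1 against 33, 48 and 29 (log2 change 4.54, or 5.13 and 2.86 with pseudocounts of 0.5 and 5), and Ebf2 at 7, 7 and 11 against 164, 118 and 145. Several members are also expressed by other young neurons. Among 15 tested genes of the cortical hem and choroid plexus, 6 rose: Lmx1a, Wnt3a, Wnt2b, Rspo1, Rspo2 and Otx2. Wnt3a, a ligand secreted by the hem, was at 4, 15 and 6 against 105, 120 and 112, with a neuron mean of 1.0, and Rspo2 at 14, 42 and 20 against 272, 315 and 259. Without proliferating replicate 1 the log2 change of Rspo1 was 3.00 rather than 3.68. The roof plate factor Lmx1a was at 18, 13 and 16 against 122, 135 and 97. These 3 were present at a low level in every differentiating pool, whereas Ttr, the most abundant transcript of choroid plexus, was at 1140, 286 and 608 against 1134, 156 and 121 and its groups overlapped. The call of Otx2 (adjusted p = 0.0386, or 0.0151 with the block) ended without any 1 of 5 progenitor libraries other than proliferating replicate 1, with adjusted p up to 0.127.

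Vessel, microglial and meningeal markers that passed the test fell, apart from Cxcl12. Of 17 endothelial and mural markers, 7 fell (11 with the block), and their sum was 1377 to 2586 normalised reads in proliferating libraries and 980 to 1087 in differentiating ones. The pericyte genes Rgs5 (112, 220 and 314 against 40, 15 and 8) and Pdgfrb (319, 407 and 470 against 138, 147 and 120) fell, while the endothelial receptor Kdr was at 62, 76 and 187 against 120, 123 and 157, with overlapping groups. The log2 change of Rgs5 was -4.05 without differentiating replicate 1 and -4.46 in replicates 2 and 3 alone, rather than -3.46. Of 11 microglia and macrophage markers, 4 fell (2 without differentiating replicate 1 or 3 or any 1 proliferating library), and the sums were 715 to 784 against 392 to 476. Csf1r, the receptor that microglia depend on, was at 119, 108 and 101 against 67, 57 and 56. Cxcl12, a chemokine of the meninges that intermediate progenitors also make, was at 169, 99 and 221 against 966, 1230 and 1286. The part of these cells in the falls of matrix, growth factor and transporter genes was not tested.

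Of 21 markers of interneurons and the ventral lineage, 3 rose (14.3%) and 2 fell (9.52%), near the shares over all genes, and 10 rose with the block. Their sum overlapped, 5019 to 6195 normalised reads in proliferating libraries and 4559 to 9028 in differentiating ones, with replicate 1 the highest of both groups. Without proliferating replicate 1 or differentiating replicate 3, 8 and 5 rose, and in replicates 2 and 3 alone 9 did. Gad2, which makes the transmitter GABA, was at 71, 17 and 3 against 271, 128 and 81. Its lowest differentiating value was close to the highest proliferating one, and its call ended in 7 of 9 sets of 8 libraries, with adjusted p up to 0.0895 (0.00159 with the block over all libraries), while its log2 change of 3.04 was 4.07 without proliferating replicate 1 and 1.98 without proliferating replicate 3. Of 7 oligodendrocyte lineage genes tested, 2 rose, Bcas1 (3, 2 and 2 against 17, 22 and 13) and Mbp, whose call ended in 6 of the 9 sets with adjusted p up to 0.136. With a pseudocount of 5 the log2 change of Bcas1 was 1.59 rather than 2.44.

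**Figure D5:**
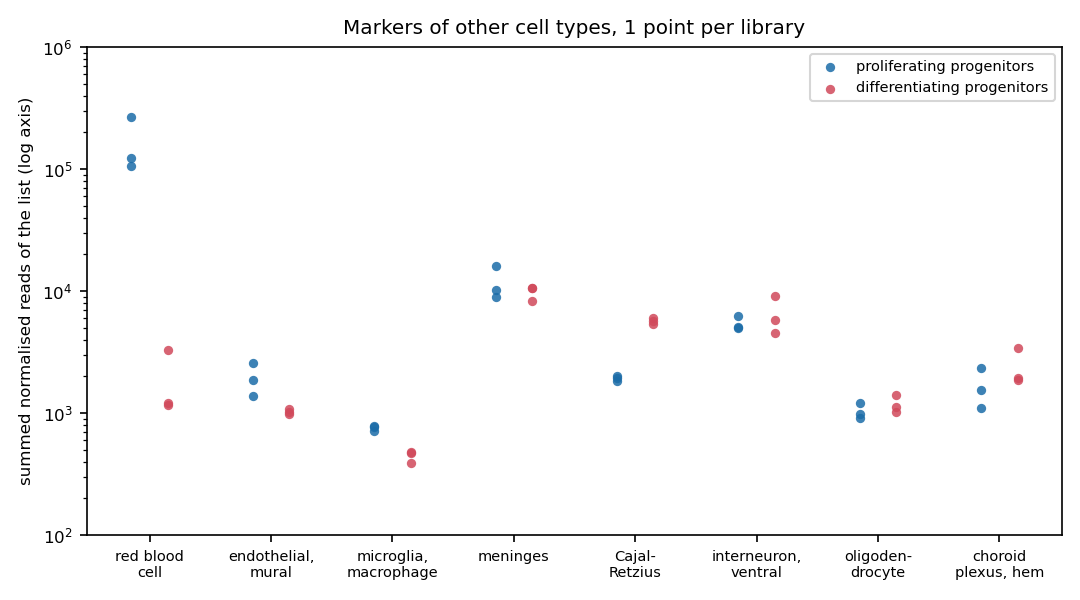
Summed normalised reads (log axis) of the marker lists of other cell types in each of the 6 progenitor libraries, with 1 point per library. Red blood cell sums are 106802 to 265615 in proliferating and 1173 to 3314 in differentiating libraries, Cajal-Retzius sums are higher in all 3 differentiating libraries, and meningeal and interneuron sums overlap.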

How the data were processed

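RNA was measured in 9 sorted pools, 3 per cell type. The authors deposited a table of normalised read counts per gene, which are whole numbers and are treated as a score on a linear scale, not as raw counts, so no count model was run. The file also gives a length in bases. The submitters' processing notes name CASAVA 1.8.0, BWA, bedtools 2.11, DESeq 1.8.1 and the mm9 build, and genes follow Ensembl 61 per the file headers; the sources used here do not say which tool did which step or whether counting used strand. The number of pools limits precision.

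Genes that reached 10 in 3 or more of the 9 libraries were tested (15828 of 21210). limma 3.58.1 with an intensity trend (R 4.3.3; tables with Python 3.11.15) was fitted to log2(value + 1) over the 9 libraries and 3 groups, with 6 residual degrees of freedom, and the contrast was differentiating minus proliferating, with p-values adjusted by Benjamini-Hochberg over all tested genes. The scripts were tested on simulated data. The authors' fold change and adjusted p columns were not used.

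Same-numbered libraries of different groups deviated together from their group means (r = 0.507 to 0.767), against -0.64 to 0.428 for other pairs of different groups. The numbers were therefore taken to pair the pools on the data, since the labels do not state a shared preparation. The main fit did not use this pairing, so its calls, SEs and adjusted p ignore it. Only the replicate block, given as an alternative, takes it into account.

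Named genes were the 15 largest rises and falls with groups that did not overlap a higher mean of at least 100 and no place in a marker list for another cell type, the 8 genes gaining and the 8 losing most normalised reads under the same conditions, up to 6 genes per list and the 3 highest members of each other-cell list; other names are list members given by call. The members and lists were chosen with earlier results of these data known, lists overlap, and 2 list patterns that had caught unrelated symbols were corrected after values were seen. Of symbols on more than 1 row (98), the row with the highest mean was used. Gene spans came from GENCODE M21 and promoters from RefSeq (GRCm38.p6), matched by gene, not by mm9 coordinates. Alternatives were other pseudocounts, filters and scalings, no trend, the 6 progenitor libraries alone, the replicate block, replicates 2 and 3 alone, and each library left out. Some items of these lists are not reported here.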

Additional observations from a re-analysis of the deposited data

How the results depend on the processing

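With replicate number as a block, which pairs same-numbered pools, 3793 genes rose and 3489 fell, against 2186 and 1758 without it, and in replicates 2 and 3 alone 2649 fell. When each library was left out in turn, genes that rose numbered 1585 to 2199 and genes that fell 1076 to 1864, those that rose at least 2-fold 900 to 1085 and those that fell at least 2-fold 513 to 897. The other alternatives kept these 4 counts within 1.5 times of the reported ones, although total-sum scaling turned the balance to 1885 higher and 2255 lower and moved the median of all genes from -0.02 to -0.09 on the log2 scale. No reported change reversed its direction under an alternative that was run. The cause of the moves was not tested. Depth and pool number limit small changes: the median SE over tested genes was 0.18 on the log2 scale.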
